A study of Drosophila melanogaster with 40 samples.

Results

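Doc2 and Doc3 are 2 of the 3 Dorsocross genes, neighbouring T-box genes on chromosome arm 3L of Drosophila melanogaster. The data are the Capicua (Cic) binding peaks that the authors annotated to them. The members were taken by gene symbol from the authors' final peak list, which gave 1 peak for Doc2 and 1 for Doc3, or 2 of 103 peaks. Each peak was followed through the deposited signal matrices of 6 conditions, where it is the column with its row number in the list.

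Capicua is an HMG-box transcription factor that represses its target genes, and the kinase ERK relieves this repression by phosphorylating it. ERK is switched on by receptor tyrosine kinases through Ras, at the embryo poles by the receptor Torso. The Dorsocross genes encode T-box transcription factors of the dorsal ectoderm, where they act redundantly in forming the amnioserosa. They are expressed under the control of BMP signalling (the ligand Dpp) and of the homeobox protein Zen.

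Chromatin immunoprecipitation and sequencing (ChIP-seq) was done on whole embryos of early nuclear cycle 14, after collection for 3 to 4 h in the dark and 15 min of fixation, with an antibody against GFP. In all groups but one, Cic carried a super-folder GFP tag put into the endogenous gene, and the labels give 1 tagged copy. Wild type embryos were (+/+); (CicsfGFP/+). OptoSOS embryos were (UAS-OptoSOS/gal4);(CicsfGFP/gal4), with the maternal triple driver MTD gal4 supplying the optogenetic construct, and had no light or 1, 5 or 30 min of blue light. OptoSOS brings a Ras activator to the membrane under blue light and thereby switches on ERK. Embryos labelled (TorD4021/+);(cicsfGFP/+) carried a constitutively active Torso receptor. Untagged OreR embryos, (+/+), gave the antibody's background. There were 3 ChIP libraries in each group and 2 in the 1 min group, but each deposited matrix combines them. The spread between embryos is therefore unknown at every value below, and no p-value is given.

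The Dorsocross cluster held 2 Cic peaks, and both lay between genes. The Doc2 peak spans 3L:9028911-9029715 (dm6), 805 bp with its summit at 9029420. The authors annotated it as distal intergenic, 9665 bp upstream of the Doc2 start site. It lies in the gap between Doc2 (3L:9012686-9019246) and Doc1 (3L:9041375-9045042), 10174 bp from the nearer end of Doc2 and 11955 bp from the nearer end of Doc1. Between the peak and Doc1 lies the non-coding RNA gene CR46451. Doc1 itself, the remaining member of the cluster, was annotated to no peak, and which of the genes the Doc2 peak serves was not tested.

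The Doc3 peak spans 3L:9002571-9002867, 297 bp with its summit at 9002711, and is also annotated as distal intergenic. It lies 2329 bp upstream of the Doc3 start site (gene at 3L:9005196-9007249). On its other side it begins just past the end of CG5087 (3L:8998184-9002566), whose nearer end is 145 bp from the summit. The summits of both peaks are 26709 bp apart, with Doc3, CG5194 and Doc2 between them.

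The Doc2 peak was far stronger than the Doc3 peak in wild type embryos. In the authors' deposited table the fold enrichment over untagged embryos was 24.95 at Doc2 and 6.57 at Doc3, against a median of 7.19 over the final list. The Doc2 peak was thus second of 103 by fold enrichment and the Doc3 peak 62nd. The authors' deposited -log10 q was 200.8 at Doc2 and 27.1 at Doc3. The untagged background level that these values imply was 6.96 for Doc2, close to the genome-wide level of 6.90. The lowest level implied was also 6.90, so Doc2 stands near the floor of this measure. Untagged coverage at the summit itself was not read. For Doc3 the implied level was 8.35, near the median of 8.55 over the final list. Of all 468 calls made on the pooled wild type libraries, these were the only 2 within 20 kb of the outermost Dorsocross genes. Among 8 T-box genes looked up (Doc1, Doc2, Doc3, bi, mid, H15, org-1 and byn), only Doc2 and Doc3 were annotated to a final peak. Both were taken from the peak list itself, so their place in this count was fixed beforehand. The share over all genes was not computed.

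**Figure D1:**
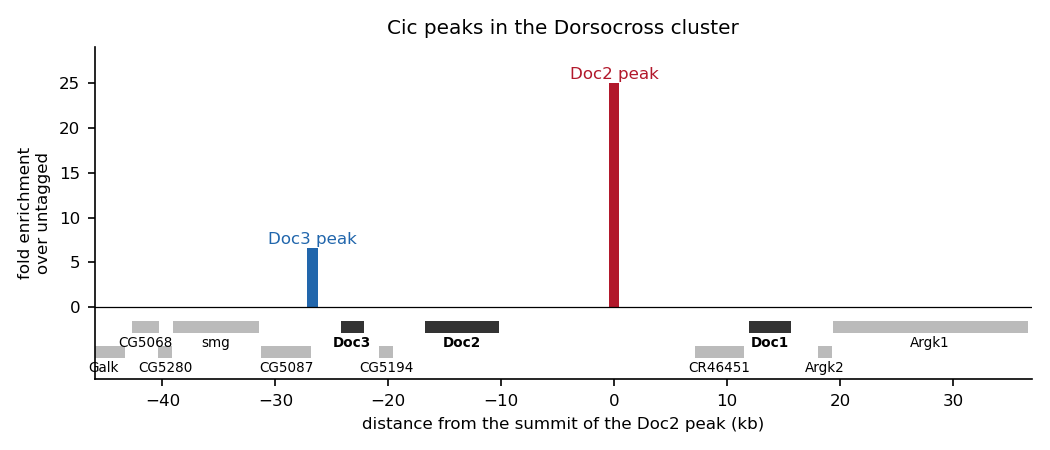
Genes (boxes, Dorsocross genes in black) and Cic peaks (bars, the authors' fold enrichment over untagged embryos) by distance in kb from the summit of the Doc2 peak. The Doc2 peak, at 24.95-fold, stands between Doc2 and Doc1, and the Doc3 peak, at 6.57-fold, between CG5087 and Doc3.

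Signal was read as the mean within 250 bp of the window centre on 2 scales. The deposited z-score is 0 at the mean of noise peaks, regions the authors used for background. Coverage over noise is the read coverage recovered from the z-scores divided by the mean coverage of the noise peaks, so that 1 is the noise level. Its 95% intervals are exact intervals on read equivalents, take reads as independent and cover counting error only. A difference is called higher or lower beyond counting error where the interval of the ratio excludes 1.

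At Doc2 the z-score was 19.8 in wild type, 23.7 in no light, 24.9 after 1 min, 14.3 after 5 min, 6.88 after 30 min and 15.3 with active Torso. Coverage over noise in the same order was 15.2 (95% counting interval 13.7 to 16.7), 18.5 (17.0 to 20.1), 23.6 (21.5 to 25.9), 11.8 (10.5 to 13.2), 6.51 (5.51 to 7.60) and 12.5 (11.2 to 13.8). These rest on 155 to 552 read equivalents. The interval of the 30 min value overlapped with that of no other condition, and active Torso and 5 min could not be told apart.

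At Doc3 the z-score was 5.87 in wild type, 8.94 in no light, 9.74 after 1 min, 5.56 after 5 min, 1.85 after 30 min and 8.85 with active Torso. Coverage over noise was 5.20 (4.39 to 6.14), 7.59 (6.65 to 8.66), 9.83 (8.51 to 11.3), 5.19 (4.35 to 6.11), 2.48 (1.88 to 3.19) and 7.64 (6.66 to 8.69) in the same order. Between 59.3 and 227 read equivalents lie behind these values. After 30 min the value was the lowest and its interval overlapped with no other. Active Torso stood level with no light, and 5 min of light level with wild type.

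**Figure D2:**
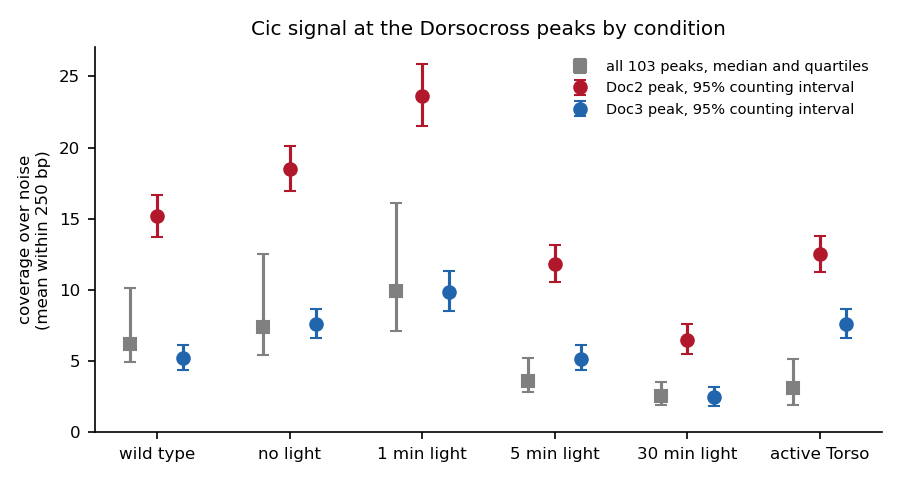
Coverage over noise (mean within 250 bp of the window centre) at the Doc2 and Doc3 peaks in the 6 conditions, with 95% counting intervals, beside the median and quartiles of all 103 peaks. Doc2 lies above the upper quartile in every condition, whereas Doc3 lies near or below the median except after 5 min of light and with active Torso.

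Put in order, Doc2 ran from 1 min of light through no light, wild type, active Torso and 5 min to 30 min. Each neighbouring pair in that order differed beyond counting error except active Torso and 5 min, with a ratio of 1.06 (0.908 to 1.23). Doc3 ran from 1 min through active Torso, no light, wild type and 5 min to 30 min. Here active Torso and no light had a ratio of 1.01 (0.830 to 1.21), and wild type and 5 min a ratio of 1.00 (0.791 to 1.28). The other neighbouring pairs differed beyond counting error.

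Coverage at Doc2 was 2.92 times that at Doc3 in wild type (2.40 to 3.55), 2.44 times in no light (2.08 to 2.85), 2.40 times after 1 min (2.02 to 2.85), 2.27 times after 5 min (1.86 to 2.80) and 2.62 times after 30 min (1.93 to 3.61). With active Torso the gap narrowed to 1.64 times (1.38 to 1.94).

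By z-score among 103 peaks Doc2 was 7th in wild type, 9th in no light and after 1 min, 4th after 5 min, 5th after 30 min and 3rd with active Torso. Its wild type neighbours in that order were wntD, a Wnt family gene, and zen above it, and peaks of dpp and hkb below it. None of these 4 differed from it beyond counting error, with ratios of Doc2 to the neighbour from 0.953 to 1.02. After 30 min its neighbours were CG15480 and shn, which encodes a zinc-finger partner of BMP signalling, above it, and the same hkb and dpp peaks below it, again with no difference beyond counting error.

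Doc3 changed its place more. It was 71st in wild type, 49th in no light, 53rd after 1 min, 28th after 5 min, 53rd after 30 min and 14th with active Torso. In wild type it stood among RasGAP1 and milt above and the weakest tll peak and a peak in cic below, none of which differed from it beyond counting error. After 30 min it stood between fkh and a pnt peak, with salm and a peak without a gene symbol next, all within counting error.

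Dark OptoSOS embryos were set beside wild type to see what the optogenetic line does without light. Cic signal was higher at both Dorsocross peaks. The ratio of no light to wild type was 1.22 (1.07 to 1.39) at Doc2 and 1.46 (1.18 to 1.81) at Doc3. Both were called higher, as were 46.6% of all peaks, and the median ratio of all peaks was 1.19. At Doc2 the call was lost within 100 bp (1.17, 0.997 to 1.38). The ratios at Doc2 and Doc3 did not differ beyond counting error (Doc2 over Doc3 0.835, 0.653 to 1.07). A difference between the lines and one between libraries cannot be told apart.

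After 1 min of light signal was no lower at either peak. The ratio to no light was 1.28 (1.13 to 1.45) at Doc2 and 1.29 (1.06 to 1.58) at Doc3. Both were called higher, as were 63.1% of all peaks, and the median over all peaks was 1.26, close to both. The call was lost at Doc2 within 100 bp (1.17, 0.995 to 1.38) and at Doc3 with the flank subtracted (1.31, 0.993 to 1.74) and with 145 bp per read (1.29, 0.978 to 1.71). The difference in z-score was small, 1.19 at Doc2 and 0.802 at Doc3. The 1 min matrix had the lowest mean noise coverage, 2.83 reads against 3.47 to 4.33 in the others, and its part in the ratio was not tested.

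With 5 min of light both peaks had less Cic than in no light, but lost less of it than most others. Coverage over noise was 1.57-fold lower than in no light at Doc2 (1.36 to 1.81) and 1.46-fold lower at Doc3 (1.19 to 1.83). Both were called lower, as were 93.2% of all peaks. At the median peak it was 2.02-fold lower. Only 18 peaks had a higher ratio than Doc2 and 13 a higher ratio than Doc3.

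To compare each peak with the rest, its ratio was divided by the ratio of the summed reads of the other 102 peaks. For 5 min against no light this gave 1.32 (1.15 to 1.52) at Doc2 and 1.41 (1.14 to 1.75) at Doc3. Both therefore kept more signal than the pool beyond counting error, as did 27.2% of all peaks. The folds of Doc2 and Doc3 were alike within counting error (Doc2 over Doc3 0.933, 0.725 to 1.20).

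After 30 min of light both peaks had less Cic than in no light, by a fold close to that of the median peak. Coverage was 2.84-fold lower than in no light at Doc2 (2.38 to 3.43) and 3.06-fold lower at Doc3 (2.30 to 4.17), where the median peak was 3.11-fold lower. Both were called lower, as were 95.1% of all peaks. Against the pooled other peaks the ratios were 1.17 (0.980 to 1.40) and 1.09 (0.816 to 1.45), which do not differ from 1 beyond counting error. At Doc3 a coverage of 2.48 times the noise level was left, close to the 2.54 of the median peak, and at Doc2 6.51. The size of the fold at Doc3 depends on the window and the background, with a ratio to no light of 0.327 as measured here, 0.602 over the whole 2 kb (0.500 to 0.727) and 0.161 with the flank subtracted (0.0662 to 0.392). The Doc3 flank holds part of a lower rise, described below, so its subtraction does not remove background alone.

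Between 5 and 30 min signal at the Dorsocross peaks went on to fall. The 30 min value was 1.81-fold lower than the 5 min value at Doc2 (1.50 to 2.22) and 2.09-fold lower at Doc3 (1.53 to 2.89). Both were called lower, as were 50.5% of all peaks, and the median peak was 1.47-fold lower. At Doc3 the ratio of 0.479 became 0.746 over the whole 2 kb (0.612 to 0.911) and 0.264 with the flank subtracted (0.106 to 0.657). At Doc2 56.0% of the 30 min fall in coverage over noise had been reached at 5 min (SE 6.69 percentage points, counting error only), and at Doc3 47.1% (SE 10.5). The median over the 101 peaks that were lower at 30 min was 78.8%, with quartiles of 66.6% and 90.6%. A smaller share than that of Doc2 was found at 14 peaks and a smaller one than that of Doc3 at 9. For the step from 5 to 30 min the ratio over the pool was 0.886 (0.730 to 1.08) at Doc2 and 0.769 (0.567 to 1.04) at Doc3, so that the larger late fall itself was not shown beyond counting error.

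**Figure D3:**
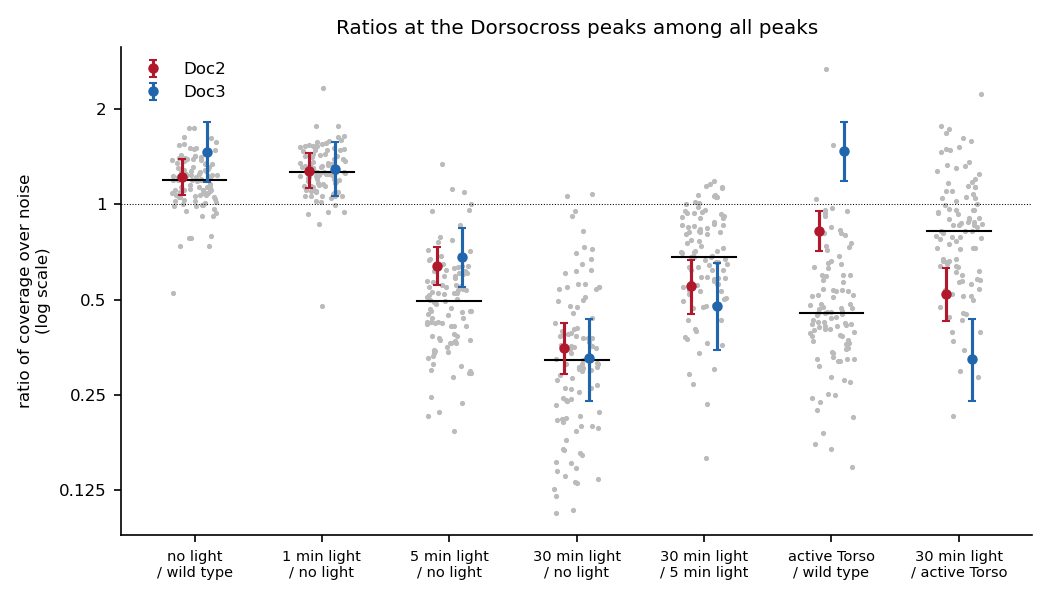
Ratios of coverage over noise (log scale) for 7 comparisons, with each of the other 101 peaks as a grey point, the median of all peaks as a black line and Doc2 and Doc3 with their 95% counting intervals. Doc2 and Doc3 lie above the median for 5 min against no light, near it for 30 min against no light, and far above it for active Torso against wild type.

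Constitutively active Torso against wild type asks what lasting receptor activity does to Cic binding, beside a pulse of light. Most peaks had less Cic, the Doc2 peak only slightly less and the Doc3 peak more. At Doc2 coverage was 1.21-fold lower (1.05 to 1.40), called lower as were 87.4% of all peaks, while the median peak was 2.20-fold lower. The call at Doc2 was lost with the flank level as scale (0.868, 0.752 to 1.00) and with 145 bp per read (0.824, 0.674 to 1.01). At Doc3 it was higher, with a ratio of 1.47 (1.18 to 1.82), a call that 2.91% of all peaks shared. These were betaTub60D, CG3168 and Doc3, named because they are so few. Only those 2 other peaks had a higher ratio than Doc3, and 12 had a higher ratio than Doc2.

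Set against the pooled other peaks, the ratio of active Torso to wild type was 1.63 at Doc2 (1.41 to 1.88) and 2.90 at Doc3 (2.35 to 3.59). Both lay above the pool, as did 23.3% of all peaks. Doc2 and Doc3 also differed from each other here, with a Doc2 ratio 0.561 times the Doc3 ratio (0.435 to 0.722). The rise at Doc3 depends on the embryos used as reference, since against dark OptoSOS embryos its ratio was 1.01 (0.830 to 1.21) and that of Doc2 0.675 (0.590 to 0.771), where the median peak stood at 0.400. That comparison was added after the values were seen. With no light as reference, Doc3 was 5th and Doc2 14th of 103 by ratio.

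With active Torso Doc2 stood 3rd of all peaks by z-score. Above it were CG12986, with 23.8, and the strongest pnt peak, with 17.0, and below it came the strongest hkb peak with 13.8. Doc3, at 8.85, stood beside shn (9.10) and the FGF ligand gene ths (9.08) and above the strongest tll peak (6.98), which had been far above it in wild type (35.3 against 5.87). These neighbours were looked up after the values were seen.

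Cic signal at both peaks was lower after 30 min of light than with active Torso. Coverage after 30 min was 1.92-fold lower than with active Torso at Doc2 (1.59 to 2.34) and 3.08-fold lower at Doc3 (2.31 to 4.18), whereas the median peak was 1.21-fold lower. Both were called lower, as were 36.9% of all peaks. The Doc3 ratio of 0.325 became 0.570 over the whole 2 kb (0.473 to 0.686) and 0.163 with the flank subtracted (0.0669 to 0.397). Relative to the pooled other peaks the ratio was 0.723 (0.598 to 0.874) at Doc2 and 0.451 (0.338 to 0.601) at Doc3, below the pool as were 17.5% of all peaks. Only 3 peaks had a lower ratio than Doc3. A comparison of 5 min of light with active Torso was added after the values were seen. The 5 min value was 1.47-fold lower than with active Torso at Doc3 (1.19 to 1.83), called lower as were 4 of 103 peaks. At Doc2 it was not different beyond counting error (ratio 0.944, 0.811 to 1.10). The median ratio over peaks was 1.20, and 30 peaks were called higher. Line, pulse length and libraries differ between these groups and cannot be told apart. Whole embryos were used, so a change in some cells and a smaller change in all cells cannot be told apart either.

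**Figure D4:**
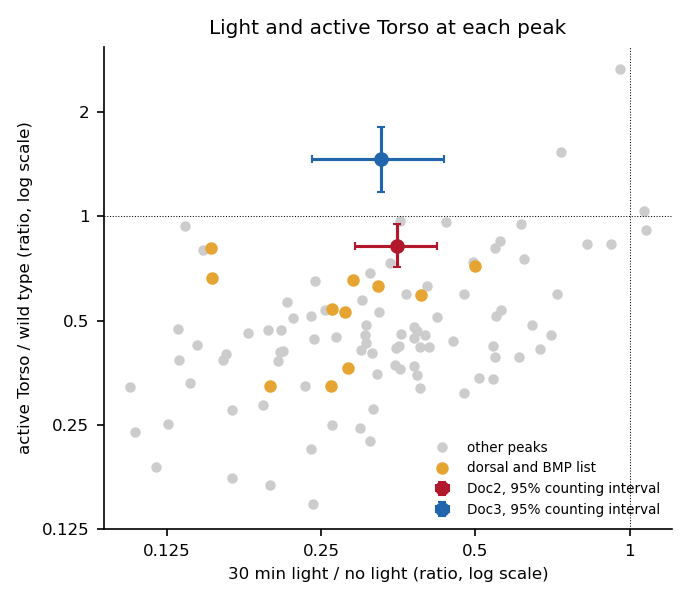
Each of the 103 peaks by its ratio of 30 min light to no light (x axis, log scale) and of active Torso to wild type (y axis, log scale), with 95% counting intervals for Doc2 and Doc3 and the peaks of the dorsal and BMP list in orange. Doc2 and Doc3 have middling ratios under light, 0.352 and 0.327, and higher ones with active Torso, 0.824 and 1.47. Doc2 lies level with srp peak 1 (0.813) at the top of the list and Doc3 above it.

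The Doc2 peak was also read along its window in each condition. In wild type it had a main summit and a shoulder on the side of lower coordinates, towards Doc2, at 350 to 600 bp from the centre. The shoulder was picked out after the profiles were seen, so its values are a description. Its coverage over noise was 6.33 in wild type, 5.20 in no light, 5.24 after 1 min, 2.72 after 5 min, 0.898 after 30 min and 2.29 with active Torso. The same stretch on the other side of the centre had 1.46, 1.74, 4.04, 1.15, 1.85 and 1.46 in the same order.

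With active Torso the shoulder was 2.77-fold lower than in wild type (1.82 to 4.15), while the central 100 bp on either side were 1.32-fold lower (1.10 to 1.58). The ratio of the shoulder was 0.477 times that of the centre (0.310 to 0.735). The same quantity was already below 1 for no light against wild type, at 0.700 (0.497 to 0.987). Both values use wild type as reference, where the shoulder was highest, so neither is a test of a change in shape. Against no light, a reference added after the values were seen, the quantity was 0.682 for active Torso (0.442 to 1.05), which did not differ from 1 beyond counting error. Nor did it after 1 min (0.859, 0.585 to 1.26) or 5 min of light (0.931, 0.606 to 1.43). After 30 min of light the shoulder was 5.79-fold lower than in no light (3.04 to 12.0) and the centre 3.01-fold lower (2.38 to 3.82), and the ratio between them, 0.520 (0.265 to 1.02), did not differ from 1 beyond counting error. Only 10.9 read equivalents were left there at 30 min. By profile the Doc2 windows of the 6 conditions lay within 30 bp of each other, so the shoulder compares nearly the same place.

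The main summit of the Doc3 window was 200 to 250 bp wide at 50% of its maximum in all conditions. A lower rise stood towards Doc3, where coverage over noise at 800 to 900 bp from the centre was 3.24 in wild type, 2.31 in no light and 3.77 after 1 min. After 30 min it was 1.73 there and 2.67 at 700 to 800 bp. The highest 100 bp mean at the Doc3 summit in that condition was 3.79. The Doc3 windows were shifted against the no light window by 20 bp after 1 min, 30 bp in wild type, 50 bp with active Torso, 60 bp after 5 min and 70 bp after 30 min. Each deposited window is centred on its own highest point, and the 30 min profile was least like that of no light (r = 0.703 over positions, against 0.917 to 0.970 for the others). The Doc3 flanks, beyond 750 bp from the centre, were 1.55 to 2.24 times the noise level, above the medians of 1.28 to 1.51 over all peaks. They hold part of the lower rise, so every Doc3 ratio with the flank subtracted has part of that rise taken off.

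**Figure D5:**
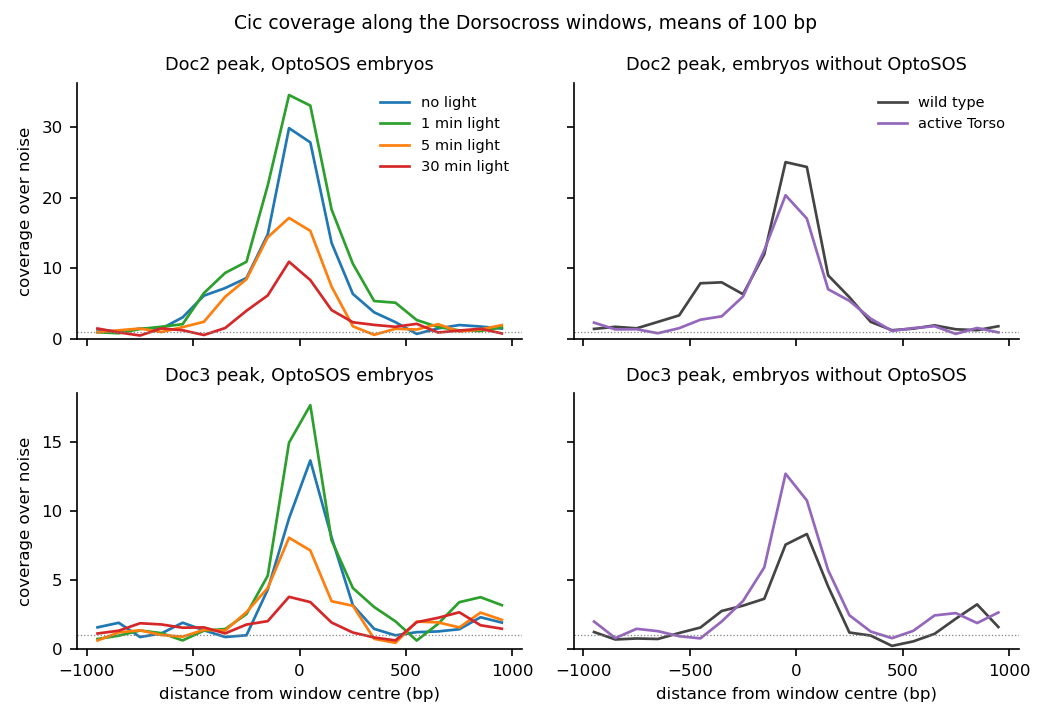
Coverage over noise in means of 100 bp along the 2 kb windows of Doc2 (top) and Doc3 (bottom), for OptoSOS embryos by light (left) and for wild type and active Torso (right), with coordinates ascending to the right and the noise level dotted. The Doc2 shoulder at the left of the main summit, 6.33 in wild type, is low with active Torso and after 30 min of light, and the Doc3 summit is higher with active Torso than in wild type.

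The peaks whose pattern was most like each Dorsocross peak were sought by the root mean square difference of log2 ratios to no light over the 5 other conditions. These share the no light reference and come from 1 combined matrix each. For Doc2 they were RasGAP1 (difference of 0.16), DNApol-epsilon255 (0.19), CG12986 (0.21), the second srp peak (0.22) and CG7029 (0.22). RasGAP1 encodes a GTPase-activating protein that switches off Ras, and srp a GATA factor of the endoderm and blood. Doc3 came 8th in likeness to Doc2, with 0.29. For Doc3 the order was RasGAP1 (0.29), Doc2 (0.29), CG12986 (0.29), CG6163 (0.43) and DNApol-epsilon255 (0.44). With active Torso, RasGAP1 and CG12986 had ratios to wild type of 0.970 and 0.962. The other like peaks had lower ones, 0.597 at DNApol-epsilon255, 0.632 at the second srp peak, 0.649 at CG6163 and 0.685 at CG7029.

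Of 32 genes of the dorsal ectoderm, amnioserosa and BMP pathway, 11 were annotated to a final peak, with 13 peaks in all. The list was chosen with earlier results of these data known, and the share over all genes was not computed. The count is therefore a description only. The 11 peaks outside Doc2 and Doc3 belong to the BMP ligand gene dpp (2 peaks), the metalloprotease gene tld, the repressor gene brk, the BMP transcription factor gene shn, the homeobox genes zen and zen2, the GATA factor genes pnr and srp (2 peaks of srp) and ths. After 5 min of light all 11 were lower than in no light beyond counting error, with a median of 1.91-fold against 2.02-fold over all peaks. After 30 min all 11 were lower, with a median of 3.60-fold against 3.11-fold. Compared with wild type, all 11 were lower with active Torso beyond counting error, by a median of 1.69-fold, and their ratios ran from 0.323 at pnr to 0.813 at srp peak 1 (0.696 to 0.951). These counts are near the shares of all peaks called lower, 93.2%, 95.1% and 87.4%. The Doc3 ratio of 1.47 lay above this range beyond counting error, whereas the 0.824 of Doc2 (0.714 to 0.950) could not be told apart from srp peak 1. At zen, the homeobox gene upstream of the Dorsocross genes, the active Torso ratio was 0.325 and at dpp peak 1 0.365. It was higher at zen2, 0.662, and at dpp peak 2, 0.593.

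The other list was of known Cic targets. The 11 peaks of tll, hkb, ind, aos and pnt were all lower after 5 and after 30 min of light beyond counting error, and 10 of 11 were lower with active Torso, near the shares of all peaks (93.2%, 95.1% and 87.4%). Their median at 30 min was 5.56-fold lower than in no light, where Doc2 and Doc3 were 2.84-fold and 3.06-fold lower. The exception with active Torso was pnt peak 1, with a ratio of 0.938, and tll peak 1 had 0.238. The median ratio of the target peaks was 0.470, against 0.455 over all peaks. Their ratios reached down to 0.189 at tll peak 2, and pnt peak 2 had 0.798, near the 0.824 of Doc2.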

How the data were processed

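Peaks were called with MACS 2.1.2 on pooled wild type ChIP libraries (6994179 tags) against pooled untagged ones (5712080 tags), with 74 bp tags, a 145 bp extension and a q threshold of 0.01, per the file headers. The submitters' processing notes name build dm6, Trim Galore, BWA 0.7.17-r1188, SAMtools and ChIPseeker. The authors deposited for each peak a fold enrichment, -log10 p and -log10 q values, a pileup signal at the summit and, in the final list, a score of 10 times -log10 q. How that list was filtered from the calls is not stated in the labels or headers. The authors also deposited z-scores per 10 bp window (201 windows per peak, replicates combined), a score relative to noise peaks, as the workbook's description says.

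Within each matrix the z-scores are whole steps above the lowest value (deviation at most 2.4e-05 of a step), which were read as read bases per window. That the lowest value is no coverage is an assumption, not stated by the submitters and checked against the pileup in wild type alone, and every fold depends on it. The matrices carry no names. In the order of the peak list, all 6 pairs of wild type windows with summits within 1700 bp matched exactly over their shared part, with coordinates ascending. The wild type maximum was 1.04 times the pileup rescaled to unextended reads at the median peak. Ratios have exact conditional 95% intervals on read equivalents (read bases divided by 74). Ratios of ratios have intervals from summed log variances. Duplicates were kept and reads carry no molecular identifiers, so copies of 1 fragment count as separate reads. The intervals take reads as independent and cover counting error only, so they may be too narrow. The untagged background level is the pileup plus 1, divided by fold enrichment, minus 1. It is the background that the caller used, not the untagged coverage at the summit. Gene positions are those of RefSeq on Release 6, the same assembly as dm6. All 32 dorsal genes, 8 T-box genes and 6 Cic targets matched it by symbol. Input libraries were not used here.

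Named beside the members were list genes with a peak, calls in the cluster, rank neighbours and the 5 most similar peaks. The members and lists were chosen with earlier results of these data known. Analyses used Python 3.11.15, numpy 2.4.6 and scipy 1.17.1.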

Additional observations from a re-analysis of the deposited data

How the results depend on the processing

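No paired analysis was possible because each deposited matrix combines its replicates, and for the same reason no replicate could be left out. The planned motif search was not run, since no sequence of these peaks was used here. Of 63 other settings at Doc2 and 63 at Doc3, none turned a direction. The cause of each change below was not tested, except that 145 bp per read lowers the counts. At Doc2, the mean within 100 bp gave 1.17 for no light against wild type (0.997 to 1.38) and 1.17 for 1 min against no light (0.995 to 1.38), which are no longer calls. The window maximum gave 0.525 for 5 min against no light. For active Torso against wild type, the flank level as scale gave 0.868 (0.752 to 1.00) and 145 bp per read 0.824 (0.674 to 1.01), which are no longer calls. At Doc3, 1 min against no light was 1.31 with the flank subtracted (0.993 to 1.74) and 1.29 with 145 bp per read (0.978 to 1.71). With no light as reference, chosen after seeing the data, active Torso gave 1.01 at Doc3.

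The Doc2 ratio over the Doc3 ratio changed side of 1 with the flank subtracted for 1 min (1.01) and 5 min (1.00) against no light. Within 500 bp and over the whole 2 kb it did so for 30 min against no light (0.838 and 0.652) and against 5 min (0.997 and 0.808). Over the whole 2 kb it became a call for 5 min against no light (0.807) and, on the other side of 1, for 30 min against no light (0.652, 0.517 to 0.823). It was lost for 30 min against active Torso within 500 bp (1.33) and over 2 kb (1.02). For active Torso against wild type it stayed below 1 beyond counting error in each window tried. Scaling on the flanks moved every ratio by 0.20 on the log2 scale for 5 min and by 0.17 for 30 min against no light. Counting a peak as lower from 2-fold on left 53 peaks in place of 96 for 5 min, 20 of 52 for 30 min against 5 min, 14 of 38 for 30 min against active Torso and 0 of 3 for no light against wild type. Of the 5 peaks most like Doc2, 0 stayed by absolute levels and 2 by Pearson r, and of those most like Doc3 2 and 3. At 30 min the Doc3 value rests on 59.3 read equivalents and the Doc2 shoulder on 10.9.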

Other observations

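On the side of the Doc2 peak facing Doc1, 350 to 600 bp from the centre, coverage over noise was 4.04 after 1 min of light and 1.74 in no light, a ratio of 2.32 (95% counting interval 1.36 to 3.84). It was 1.46 in wild type, 1.15 after 5 min, 1.85 after 30 min and 1.46 with active Torso. The stretch was chosen after the profiles were seen, and it rests on 40.2 read equivalents after 1 min and 26.5 in no light. The Doc2 peak was 310 bp wide at 50% of its maximum after 1 min and 360 bp after 5 min, against 220 to 250 bp in the other conditions.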
